A study of Caenorhabditis elegans with 6 samples.

Results

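HIF-1::GFP binding was examined at a pair of intronic loci on the X chromosome of the nematode Caenorhabditis elegans, within the gene ZK470.2, whose intron also holds the gene ZK470.4, and within the gene H18N23.2. All peaks centred in a window around each locus were taken from the peak lists of both genotypes. The windows held 7 of the 604 nuclear peaks of egl-9 mutants and 2 of the 52 of the control strain, or 9 of 656 peaks in all. In egl-9 mutants ZK470.2/ZK470.4 had 3 calls and H18N23.2 had 4, and in the control strain each locus had 1. The loci were picked from the lists because their peaks were high and intronic. Their signals and ranks are therefore given as a description, without a test.

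The egl-9 mutants (strain OR3350) carried egl-9(sa307), hif-1(ia4) and the transgene odIs131[hif-1::gfp], and the control strain (OR3349) carried hif-1(ia4) and the same transgene with a wild-type egl-9 gene. In both strains the tagged HIF-1 came from a single integrated transgene line in a hif-1 null background, with unc-119(ed3) and an unc-119(+) rescue marker. Chromatin came from whole animals harvested at the L4 stage after growth in room air at 20 °C, so binding in any tissue contributes to a peak. It was precipitated with anti-GFP antibodies in 2 ChIP replicates per genotype, with 1 pooled input per genotype, and each genotype has 1 list of reproducible peaks. Signal is the value listed for each peak, taken as the enrichment from the SPP peak caller. The lists were not scaled to each other, and they hold no value per replicate and no library depth, so no replicate spread or confidence interval could be computed.

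HIF-1 is the worm ortholog of the HIF-alpha transcription factors that switch on genes in low oxygen. In air, the prolyl hydroxylase EGL-9 modifies HIF-1 and the VHL-1 ubiquitin ligase marks it for destruction, so loss of egl-9 stabilises HIF-1 without hypoxia. With its partner AHA-1, HIF-1 binds hypoxia response elements (HREs), whose core is RCGTG (R is A or G, so ACGTG or GCGTG). A core on each strand can overlap in the palindrome CACGTG, which is also the E-box read by several other bHLH proteins. Transcription factors often act from introns as well as from promoters. Many worm genes have further promoters inside the introns of longer transcripts.

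The sequences under the leading peaks show how the cores were arranged. Each is the central window of a peak of egl-9 mutants, which reaches 100 bp to either side of its centre, read 5′ to 3′ on the plus strand of the RefSeq genome (build WBcel235), with every core in capitals. A core on the minus strand reads CACGT or CACGC here. The first window, X:4142202-4142402, lies in an intron of ZK470.2 and the next, X:17631006-17631206, in an intron of H18N23.2. The last, X:17633276-17633476, lies under a weaker peak of H18N23.2 and is shown because it held more cores than either leading peak.
ZK470.2/ZK470.4 leading peak: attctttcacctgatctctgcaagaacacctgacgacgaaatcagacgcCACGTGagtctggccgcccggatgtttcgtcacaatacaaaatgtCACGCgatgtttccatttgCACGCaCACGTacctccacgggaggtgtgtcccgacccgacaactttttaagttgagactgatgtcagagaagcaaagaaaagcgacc
H18N23.2 leading peak: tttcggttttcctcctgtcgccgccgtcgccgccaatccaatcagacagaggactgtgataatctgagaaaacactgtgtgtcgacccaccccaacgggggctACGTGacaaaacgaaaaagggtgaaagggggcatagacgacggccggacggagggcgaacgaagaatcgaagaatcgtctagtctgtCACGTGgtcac
H18N23.2 weaker peak: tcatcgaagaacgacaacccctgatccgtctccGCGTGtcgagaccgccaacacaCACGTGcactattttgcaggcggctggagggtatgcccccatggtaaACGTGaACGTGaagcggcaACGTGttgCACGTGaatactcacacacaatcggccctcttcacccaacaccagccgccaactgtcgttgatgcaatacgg

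ZK470.2 (WBGene00022745) lies on the plus strand of the X chromosome and has 3 annotated transcripts with different starts. The long transcript ZK470.2c starts at 4135155 and has 7 exons. ZK470.2a starts at 4145501, within intron 4 of ZK470.2c, and ZK470.2b further downstream at 4146887. RefSeq names the product of ZK470.2c a growth-regulating factor and that of ZK470.2b a NUP50 domain-containing protein, and leaves that of ZK470.2a uncharacterised. NUP50 domains are known from nuclear pore proteins. ZK470.4 (WBGene00022746) is a single-exon gene of 252 bp on the minus strand, from 4139516 to 4139767, within intron 4 of ZK470.2c. RefSeq names its product an ABC transporter ATP-binding protein.

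The leading ZK470.2/ZK470.4 peak of egl-9 mutants, X:4142105-4142499, had a signal of 649. It ranked 4 of 604 nuclear peaks, was the highest of the 139 peaks centred in an intron and was the highest on the X chromosome. Intronic peaks made up 23.0% of the nuclear list. Its signal was 8.46 times the list's median of 76.7. The peak sat near the middle of intron 4 of ZK470.2c, an intron of 8548 bp, with its centre 4402 bp from the 5′ splice site and 4146 bp from the 3′ splice site. No annotated exon was under the centre.

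The nearest annotated protein-coding start was that of ZK470.4, 2535 bp away. The peak lay upstream of it, on the side from which ZK470.4 is transcribed. The centre also lay 3199 bp upstream of the start of ZK470.2a, 4585 bp upstream of ZK470.2b and 7147 bp downstream of ZK470.2c. The next gene along the chromosome, nck-1, which encodes an SH2 and SH3 domain adaptor, starts 11141 bp from the centre. Of the peaks of egl-9 mutants, 24.0% lay over 2000 bp from every protein-coding start, and the median distance was 686 bp. The starts of ZK470.4, ZK470.2a and ZK470.2b are placed at their first coding base, and RefSeq marks these transcripts as partial, so transcription may begin further upstream than annotated.

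The control strain had a peak at the same place, X:4142094-4142533, with a signal of 259. It ranked 7 of 52 nuclear peaks and was the highest control peak on the X chromosome. All 395 bp of the leading peak of egl-9 mutants lay inside it, and the centres were 12 bp apart. Counterparts were found for 10.1% of the nuclear peaks of egl-9 mutants and for 31 of their 100 highest. The peaks next to the leading peak in rank, at ranks 2, 3, 5 and 6, all had one. A shared site was thus usual among the peaks closest in rank to the leading ZK470.2/ZK470.4 peak.

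A further call of egl-9 mutants, X:4142395-4142505, overlapped the leading peak by 105 bp and was merged with it as 1 region. Its signal was 91.9 (rank 202), its width only 111 bp, and its summit was the last base of the call. The shared stretch held a second CACGTG, with flanks gaaaagcgacCACGTGggccctgtg at X:4142392-4142416. Only the first base of this palindrome lay inside the central window of the leading peak, so its cores were not counted there. The control peak covered both calls.

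The other separate peak of the locus, X:4145205-4145648, had a signal of 66.9 and ranked 380, below the median of its list. Its centre lay 74 bp upstream of the start of ZK470.2a and 3125 bp from the leading peak. It was also within intron 4 of ZK470.2c. No HRE core was present in its central window or in the whole peak, whereas 67.7% of the nuclear peaks of egl-9 mutants had at least 1 core. The window held 1 match to TATAAA, shown in capitals with flanks as aactgctagcTATAAAacggtcttcg at X:4145376-4145401, ending 110 bp before the annotated start of ZK470.2a. TATAAA, the sequence of many TATA boxes, was searched on both strands after this window had been seen. It occurred in 13.6% of the windows of egl-9 mutants and in 21.2% of tiles of the same length laid end to end over the nuclear genome. The control list had no peak here.

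**Figure D1:**
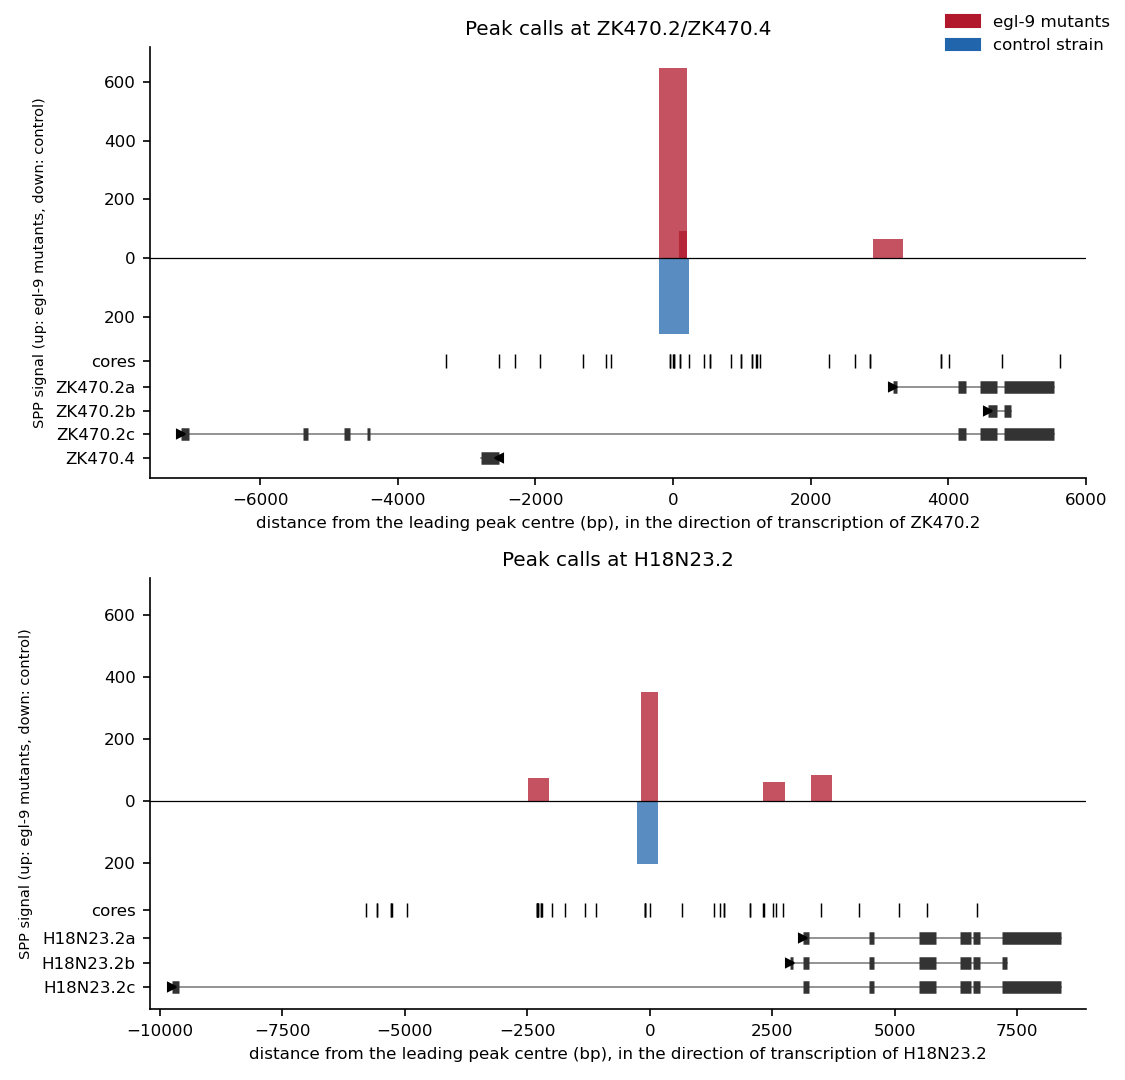
Peak calls and HRE cores at ZK470.2/ZK470.4 (above) and H18N23.2 (below) against the distance in bp from the centre of the leading peak, in the direction of transcription of ZK470.2 or H18N23.2. Bars span each call, with the SPP signal of egl-9 mutants drawn upward and that of the control strain downward, ticks mark cores within the locus window, and boxes and arrowheads mark exons and annotated starts. At both loci the control strain had a call only at the leading site, and the weaker calls of egl-9 mutants stood between 62.7 and 91.9.

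H18N23.2 (WBGene00019211) lies on the minus strand near the right end of the X chromosome, and RefSeq names its product a protein phosphatase 1 regulatory subunit. Such subunits direct the phosphatase to its substrates. It too has 3 annotated transcripts. H18N23.2c starts at 17640871, H18N23.2b at 17628246 and H18N23.2a at 17627975. The long transcript begins with an intron of 12745 bp, and both short ones start at or near the far end of that intron.

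The leading H18N23.2 peak of egl-9 mutants, X:17630934-17631277, had a signal of 352. It ranked 9 of 604 nuclear peaks, was the third highest in an intron and was the second highest on the X chromosome. Its signal was 4.59 times the median of the list. The centre lay in intron 1 of H18N23.2c, 9614 bp from the 5′ splice site and 3131 bp from the 3′ splice site. It was 2860 bp upstream of the start of H18N23.2b, 3131 bp upstream of H18N23.2a and 9765 bp downstream of H18N23.2c. The start of H18N23.2b is placed at its first coding base and is marked as partial in RefSeq. The starts of H18N23.2a and H18N23.2c are not. The neighbouring gene ncs-7, named as a neuronal calcium sensor, starts at least 14763 bp away.

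The control strain had a peak at X:17630937-17631376, with a signal of 204. It ranked 13 of 52 nuclear peaks and 3 among those on the X chromosome. The peaks of both genotypes shared 341 bp, and their centres were 51 bp apart. Beside the leading H18N23.2 peak in the list of egl-9 mutants, the peaks at ranks 8 and 11 had a counterpart. Those at ranks 7 and 10 had none. The centre in egl-9 mutants was 5 bp from the single ACGTG of the window. The centre in the control strain lay between that core, 46 bp to 1 side, and the CACGTG, whose nearer core was 41 bp to the other.

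Around the internal starts, egl-9 mutants had 2 weaker peaks. The peak at X:17628346-17628789 had a signal of 62.7 (rank 439) and was centred 322 bp upstream of the start of H18N23.2b. It lay in intron 1 of H18N23.2c. Its central window held 2 cores, with flanks tgctcatgctCACGTacacacattc at X:17628519-17628543 and ggagtaggagCACGCagcgagcaaa at X:17628578-17628602, and the whole peak held 5. The central window also held 2 overlapping matches to GAGAGA or its complement. This repeat was found in 40.9% of the windows of egl-9 mutants and 9.99% of genome tiles. The windows of the other calls at both loci held none.

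The peak at X:17627379-17627822 had a signal of 86.1 (rank 230). It was centred 374 bp downstream of the start of H18N23.2a, in a shorter intron of 1216 bp, which is intron 1 of H18N23.2a and intron 2 of H18N23.2b and H18N23.2c. Its only core lay 14 bp from the centre, with flanks tcggtttttgCACGTcgccagctta at X:17627603-17627627. Neither of these peaks had a control counterpart.

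The remaining peak, X:17633154-17633597, lay on the other side, 2270 bp closer to the 5′ end of intron 1 and 5130 bp upstream of the start of H18N23.2b. Its signal was 74.9, rank 313, just under the median of the list. Its window held 8 cores on 6 sites, 2 of them CACGTG, and 5 of the 6 sites carried ACGTG on at least 1 strand. The 4 sites nearest each other were spaced by 6, 13 and 8 bp, as the capitals of the third sequence show. The middle base of the first of them lay 4 bp from the centre of the peak. No other peak of egl-9 mutants reached 8 cores, and 56 of 498866 genome tiles did. The control list had no peak here.

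The order of core counts and the order of signal thus differed among the 7 calls. The leading ZK470.2/ZK470.4 window held 5 cores on 4 sites, with a core 4 bp to one side of the centre and another 15 bp to the other, and the nearest core 7 bp from the summit. Of all nuclear peaks of egl-9 mutants, 12 (1.99%) had at least 5 cores, and this peak had the highest signal of the 12. The next, nearest to mml-1, had a signal of 156. The leading H18N23.2 window held 3 cores on 2 sites, 1 of which was 2 bp from the summit. At least 3 cores were present in 14.4% of the list and 1.66% of genome tiles.

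CACGTG was present in 4 of the 7 windows, those of both leading peaks, of the call that overlaps the leading ZK470.2/ZK470.4 peak and of the H18N23.2 peak with 8 cores, against 14.4% of all nuclear peaks of egl-9 mutants and 3.33% of genome tiles. In the leading ZK470.2/ZK470.4 window it stood 48 to 49 bp from the centre, and in the leading H18N23.2 window 92 to 93 bp. The stretch CCACGTGA around the palindrome was the same at both leading sites, on opposite strands. It was among 3 shared words of 8 bp, the longest that the windows had in common, and AATCAGAC was another. CCACGTGA contains the palindrome already counted in both windows. How often unrelated windows share words of this length was not computed, so these words do not show that the sites are alike. No 36-bp word from the windows of the 7 calls occurred anywhere else in the genome, so none of them was a copy of the other or of another exact repeat of that length.

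**Figure D2:**
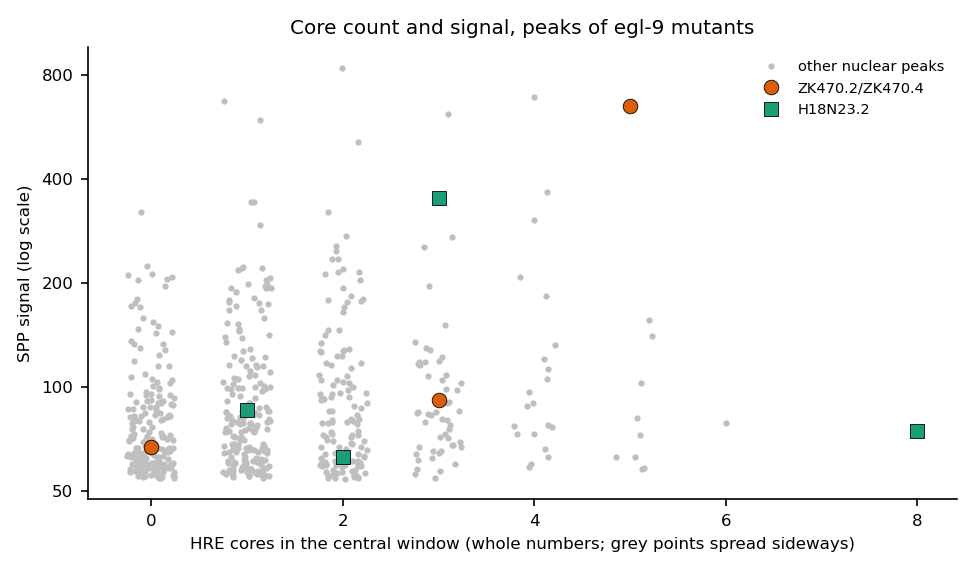
SPP signal on a log scale against the number of HRE cores in the central window for the 604 nuclear peaks of egl-9 mutants. Each point is 1 peak. The leading ZK470.2/ZK470.4 peak stands at 5 cores and a signal of 649, and the H18N23.2 peak with 8 cores stands at 74.9.

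Most cores of the loci were not under a peak. The ZK470.2/ZK470.4 window of 10001 bp held 35 cores, of which 7 lay in calls of egl-9 mutants, all in the leading peak. The H18N23.2 window of 13001 bp held 40 cores, of which 18 lay in calls and 4 in the leading peak. Core density was 8.28 per kb under calls and 3.06 per kb outside them at ZK470.2/ZK470.4, and 10.7 per kb under calls and 1.94 per kb outside them at H18N23.2. Each window had 7 CACGTG palindromes, of which 2 were under calls at ZK470.2/ZK470.4 and 3 at H18N23.2.

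The loci were alike in layout. Each had a leading peak in the longest intron of its long transcript, upstream of both internal starts of the gene. The distances were 3199 and 4585 bp to those of ZK470.2 and 2860 and 3131 bp to those of H18N23.2. Each had a weaker peak within 400 bp of an internal start, 3125 bp from the leading centre at ZK470.2/ZK470.4 and 2538 and 3505 bp from it at H18N23.2. Introns this long were rare. Of 109516 annotated introns of protein-coding genes, 230 were at least as long as the ZK470.2 intron and 71 at least as long as that of H18N23.2, and the median was 68 bp. Intronic peaks of egl-9 mutants had a median host intron of 2368 bp, and 20 of 139 lay in introns at least as long as that of ZK470.2. These 20 include the calls in the long introns of the loci themselves. The counts of annotated introns give each intron the same weight whatever its length.

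Among the 139 intronic peaks of egl-9 mutants, 83 (59.7%) had a later annotated start of the same gene downstream of them. A further separate peak within 500 bp of such a start was found for 9 of the 139 (6.47%). Of these, 5 were calls at the loci described here, and the other 4 were nearest to fkh-7, mnk-1 and vhp-1, with signals between 56.9 and 146. The 5 include both of the overlapping calls at ZK470.2/ZK470.4, which were merged above. The count follows the layout seen at these loci, so it is a description and does not show that the layout is particular to them. These genes, and mml-1 above, were named after their values had been seen. Another separate peak within 5000 bp was present for 24.7% of all nuclear peaks.

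The loci also differed. H18N23.2 had 4 separate peaks, and ZK470.2/ZK470.4 had 2. The leading signal was 9.70 times that of the other separate peak at ZK470.2/ZK470.4, and at H18N23.2 it was 4.09 times that of the strongest of the other 3. The ZK470.2/ZK470.4 leading peak was 1.84 times as high as that of H18N23.2 in egl-9 mutants, against 1.27 times in the control strain. The order of the loci was thus the same in both lists. Whether these ratios differ could not be tested, since each genotype has a single list.

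**Figure D3:**
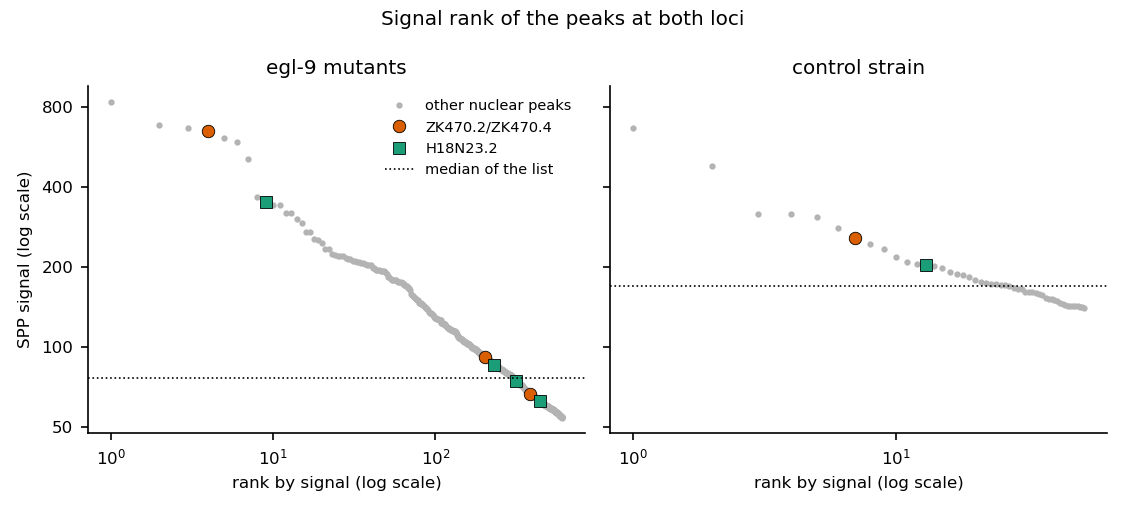
SPP signal against rank, both on log scales, in egl-9 mutants (left, 604 nuclear peaks) and the control strain (right, 52 nuclear peaks), with the median of each list as a dotted line. The leading peaks rank 4 and 9 in egl-9 mutants and 7 and 13 in the control strain, and the other 5 calls of egl-9 mutants lie between ranks 202 and 439.

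The signal in egl-9 mutants was 2.51 times that in the control strain at the leading ZK470.2/ZK470.4 site and 1.73 times at the leading H18N23.2 site. Because the lists were not scaled to each other, only the order of such ratios can be read. Among the 48 control peaks with a counterpart, the median ratio was 1.03, and the leading sites took places 3 and 6. The ratio contains the signal by which the loci were picked, so these places are a description too. Places 1 and 2 were held by peaks nearest to sqrd-1, which encodes a sulfide quinone oxidoreductase, and rhy-1, a negative regulator of HIF-1. The 5 weaker calls, from 62.7 to 91.9, were all below the lowest nuclear signal of the control list, 141. The call that overlaps the leading ZK470.2/ZK470.4 peak lay under the control peak there, and the other 4 had no control peak. The absence of those 4 from the control list does not show that the sites were unbound in the control strain.

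At the top of the list of egl-9 mutants, the peaks that ranked next to the leading ZK470.2/ZK470.4 peak were nearest to egl-9 (signal 688) and nhr-57 (670) above it and F26H9.5 (614) and sqrd-1 (590) below it. All 4 were intergenic, with centres 21 to 1767 bp upstream of a start. The gene nhr-57 encodes a nuclear hormone receptor long used as a marker of HIF-1 activity. Next to the leading H18N23.2 peak stood peaks nearest to oac-54 (512) and Y62E10A.13 (366) above it and nspe-6 (343) and rpl-3 (342) below it. Of the 10 highest peaks, 3 were intronic, the leading peaks and that of Y62E10A.13, and only the leading peaks lay over 2000 bp from every protein-coding start. In the HIF-1 pathway list (hif-1, aha-1, egl-9, vhl-1, rhy-1 and cysl-1), 2 of 6 genes had a peak centred within 1000 bp of a start, rhy-1 with the highest signal of all nuclear peaks, 838, and egl-9 with 122. Of all 19973 protein-coding genes, 453 (2.27%) had such a peak. The peaks nearest to hif-1 itself, with signals of 145.9 and 65.0, lay 2017 and 2888 bp from a start and so were not counted. Nor was the stronger egl-9 peak, with a signal of 688, which lay 1767 bp from a start.

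Other intronic peaks of egl-9 mutants with a control counterpart were lower or nearer to a start. Besides the leading pair, the strongest were in Y62E10A.13 (366, 1354 bp from the nearest start), hlh-30 (304, 950 bp), gnrr-3 (254, 2390 bp), mom-1 (215, 3397 bp) and skn-1 (179, 590 bp). The gene hlh-30 encodes the worm TFEB, a bHLH regulator of autophagy genes, and skn-1 encodes the worm Nrf factor of the oxidative stress response. The hlh-30 peak lay in an intron of 8295 bp and the Y62E10A.13 peak in an intron of 6119 bp, and both windows held 4 cores. Control counterparts were present for 18 of the 139 intronic peaks (12.9%), close to the share over the whole list.

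**Figure D4:**
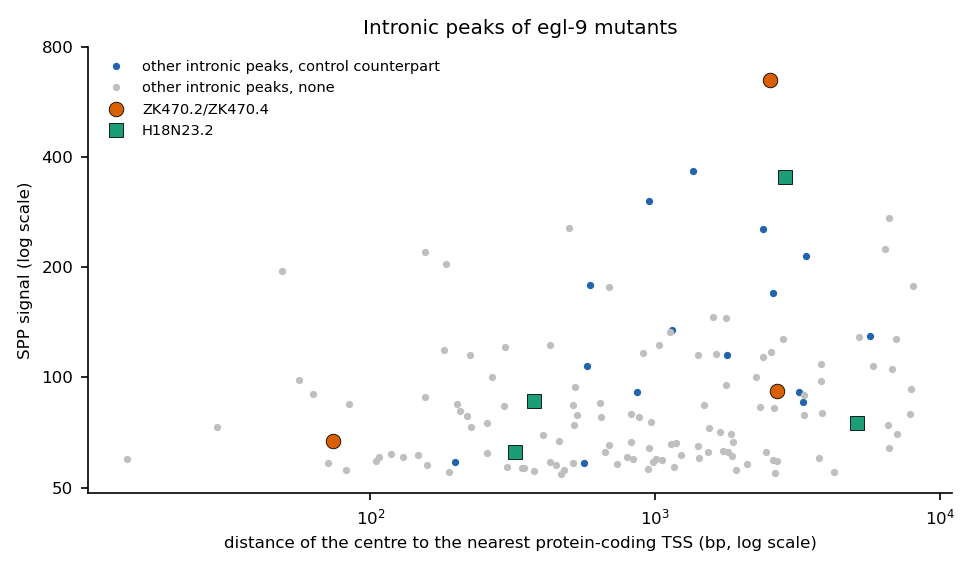
SPP signal of the 139 intronic peaks of egl-9 mutants against the distance of their centres to the nearest protein-coding start, both on log scales, with peaks that overlapped a control peak in blue. The leading peaks of both loci stand at the upper right, at 2535 and 2860 bp from a start.

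The distances to the nearest peaks outside each window are given as a description. The list of egl-9 mutants had 141 peaks on the X chromosome of 17718942 bp, and the usual gap between its peaks was not computed. The nearest peak of egl-9 mutants outside the ZK470.2/ZK470.4 window was 66985 bp from the leading centre, near F20B6.9, with a signal of 207, and on the other side none was found for 172089 bp. At H18N23.2 the nearest other peak was 117435 bp away, near nhr-1, with a signal of 66.4, and no peak lay between the locus and the end of the chromosome, 87836 bp from the leading centre. The choice of window bounds therefore had no bearing on which peaks were included. No tRNA, snoRNA or snRNA gene lay within 500 bp of the centre of any of the 7 calls. The same held for 33 of the 48 control peaks with a counterpart, and the share over all peaks of egl-9 mutants is not given here. Of the nuclear peaks, 23.3% of those of egl-9 mutants and 36.5% of those of the control strain were on the X chromosome.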

How the data were processed

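Peaks came from the deposited lists of the authors, 1 per genotype, which pool 2 ChIP replicates against 1 input. The authors aligned reads with BWA to WBcel235 and called peaks with an SPP pipeline and a reproducibility filter. The signal column of the deposited lists was taken as the SPP enrichment. Its lowest values differ from those in the study's methods, so whether it is the quantity described there is not known. The ninth column, where this format puts a q-value, was left unused, since its meaning is not stated. The summit offset, read in bp from the start of each peak, was used in alternatives and for distances to the summit. The depth of each library is unknown.

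The members, lists and settings were chosen with earlier results of these data known. Peaks were read as 0-based starts, and all ends lay within the chromosome lengths of WBcel235. Peaks that shared at least 1 bp were merged as 1 region or, between genotypes, called counterparts. Transcripts and starts came from Ensembl release 115 (Python 3.11.15, pandas 2.3.3). A peak was intronic when its centre lay in an intron and in no exon of a protein-coding transcript. Distances run from the peak centre to the annotated start. RCGTG was counted on both strands of the central window (100 bp to either side of the centre), so that CACGTG gives 2 cores, and beside this over 498866 genome tiles of the same length, each starting where the last ended. The search was tested on simulated sequences. Besides the members, the genes named are those next to a member peak, those nearest to the 2 ranks above and below each leading peak, up to 5 with the strongest other shared intronic peaks, and the HIF-1 pathway list. Mitochondrial peaks (19 in egl-9 mutants, 18 in the control strain) were left out. No significance test was made.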

Additional observations from a re-analysis of the deposited data

How the results depend on the processing

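Of 36 alternatives over 10 results, 27 stayed within 1.5 times the reported value, and 4 of the 36, 2 at each locus, were chosen after seeing the data. With mitochondrial peaks included, the leading ranks were 13 at ZK470.2/ZK470.4 and 24 at H18N23.2. With only peaks at or above the lowest nuclear control signal, each locus kept 1 region, and 1 call at ZK470.2/ZK470.4 had a control counterpart. Counting ACGTG alone gave 3 cores in the leading ZK470.2/ZK470.4 window, and a window of 50 bp to either side gave 1 core in the leading H18N23.2 peak, since its CACGTG lies outside that window. Taking only the longest transcript of each gene put the leading H18N23.2 peak 9765 bp from the nearest start. Leaving out starts placed at the first coding base, an alternative chosen after seeing the data, put the leading ZK470.2/ZK470.4 peak 7147 bp from the nearest start. No result changed direction, as none has one. No paired analysis was possible because each genotype has 1 list that combines its replicates, and leaving out a replicate was not run for the same reason. The depth of each library and the replicate spread are unknown.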
